A study of Mus musculus with 12 samples.

Results

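The 10 genes described here belong to the pathway by which cyclic AMP (cAMP) reaches the transcription factor CREB: the coactivators Crtc1, Crtc2 and Crtc3, the transcription factors Creb1, Atf1 and Crem, the kinases Prkaca and Sik1, and the phosphodiesterases Pde4b and Pde4d. They were taken by name from a table of 35275 genes, with earlier results of these data known, and all 10 were among the 13115 genes abundant enough to be tested. CD4+ T cells from 12 female mice were sequenced (RNA-Seq), each mouse giving 1 library, in 4 groups of 3 mice. The strains were B6 (C57BL/6J) and SLE123, a B6 congenic that carries from NZM2410 the regions Sle1, Sle2 and Sle3, which predispose to lupus, and of each strain 3 mice received anti-CD45RB and 3 did not. Anti-CD45RB is the monoclonal antibody MB23G2 against the RB isoform of the phosphatase CD45, given as 5 injections of 100 μg from day 0 to day 7. The mice were 9 to 12 weeks old by the figure legend, and 9 weeks old by the methods on the isolation of the cells. The control mice received no antibody, so that no isotype control stands beside the treated mice. The CD4+ cells were obtained by negative magnetic sorting. The methods also mention a split into CD25+ and CD25- cells, and the sample titles name no such fraction.

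In T cells, Gs-coupled receptors raise cAMP through adenylyl cyclases, and cAMP frees the catalytic subunits of protein kinase A (PKA), which phosphorylate CREB and its relatives. The CRTC coactivators are held in the cytoplasm when salt-inducible kinases (SIKs) phosphorylate them, and calcineurin, the phosphatase blocked by cyclosporine A, releases them to the nucleus. Phosphodiesterases of the PDE4 family degrade cAMP, and raised cAMP is known to restrain T cell activation. These steps are largely set by phosphorylation and location of the proteins, which RNA-Seq does not measure. The study asked whether anti-CD45RB acts on CREB, ATF-1 and the CRTCs in B6 mice and whether SLE123 mice lack this response, and the values here answer only how much RNA of each gene was present.

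Expression is given in FPKM (fragments per transcript length and sequencing depth). The libraries held 13562933 to 23641603 fragments, and the 10 genes were covered by 152 (Crem) to 3639 (Sik1) fragments in a library. T cell markers were high in every library, with 9 genes (Cd3d, Cd3e, Cd3g, Cd4, Lck, Cd5, Cd2, Trac and Cd28) summing to 2561 to 3283 FPKM, while other transcripts separated the groups. Immunoglobulin genes took 0.0895% to 0.336% of the fragments in the 6 B6 libraries and 2.51% to 12.2% in the 6 SLE123 libraries, with the highest share in SLE123 untreated replicate 3. The 5 liver genes looked at summed to 39.2 to 46.5 FPKM in the 6 B6 libraries and in SLE123 anti-CD45RB replicate 1, at 44.1 FPKM, and to at most 0.368 FPKM in the other 5 SLE123 libraries, so that liver transcripts and strain cannot be told apart in the untreated mice. In bulk RNA, fewer cells of a type and less RNA per cell cannot be told apart either.

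Promoter sequence was looked at because CREB and ATF-1 bind the cAMP response element, whose full form is TGACGTCA and whose half-site is TGACG, or CGTCA on the other strand. RefSeq windows of 300 bases (250 before and 50 after the start of a transcript, GRCm38.p6) were at hand for 7 of the 10 genes, 11 windows in all; Crtc2, Crem and Sik1 were not among them. A half-site lay in 3 of the 11 windows, in Atf1, Pde4b and Prkaca, and the full form in 0, beside 20.8% and 1.79% of all 32851 windows. The full form holds overlapping half-sites, so that a window with it counts under both. The windows printed are those of Prkaca and Atf1, which hold half-sites, that of Pde4d at one of its transcript starts, which holds none in the member that differed most between the strains, and, for comparison, those of 2 known CREB target genes, Nr4a3 with 4 half-sites and Areg with the full form. The 2 targets are shown for the sites they hold and do not stand for the other CREB target genes, whose windows are not counted here. Half-sites are in capitals, and a match is a description of letters, not of binding.
Prkaca, chr8:83972728-83973027, plus strand: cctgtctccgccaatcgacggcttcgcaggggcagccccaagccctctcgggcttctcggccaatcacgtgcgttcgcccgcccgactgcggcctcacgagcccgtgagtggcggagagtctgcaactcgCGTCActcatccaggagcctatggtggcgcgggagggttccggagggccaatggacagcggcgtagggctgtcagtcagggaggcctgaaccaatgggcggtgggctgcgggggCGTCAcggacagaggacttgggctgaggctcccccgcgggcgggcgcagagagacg
Atf1, chr15:100227609-100227908, plus strand: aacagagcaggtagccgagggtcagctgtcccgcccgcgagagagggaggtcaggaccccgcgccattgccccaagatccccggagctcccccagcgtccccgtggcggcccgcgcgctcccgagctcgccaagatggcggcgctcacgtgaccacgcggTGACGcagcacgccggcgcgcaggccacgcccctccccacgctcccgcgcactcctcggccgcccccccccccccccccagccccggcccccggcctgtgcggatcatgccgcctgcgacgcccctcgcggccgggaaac
Pde4d, chr13:108653927-108654226, plus strand: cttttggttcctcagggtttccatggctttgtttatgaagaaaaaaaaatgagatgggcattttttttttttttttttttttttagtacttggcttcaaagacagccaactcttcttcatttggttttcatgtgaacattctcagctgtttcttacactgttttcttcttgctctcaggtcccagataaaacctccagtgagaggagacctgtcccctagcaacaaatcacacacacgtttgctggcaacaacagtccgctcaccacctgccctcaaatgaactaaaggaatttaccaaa
Nr4a3, chr4:48045055-48045354, plus strand: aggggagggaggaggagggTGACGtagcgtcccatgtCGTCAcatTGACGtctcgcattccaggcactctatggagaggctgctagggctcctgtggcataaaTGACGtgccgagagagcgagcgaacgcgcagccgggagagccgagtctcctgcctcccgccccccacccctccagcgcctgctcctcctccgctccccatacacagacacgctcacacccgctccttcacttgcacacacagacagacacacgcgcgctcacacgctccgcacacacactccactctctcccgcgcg
Areg, chr5:91139349-91139648, plus strand: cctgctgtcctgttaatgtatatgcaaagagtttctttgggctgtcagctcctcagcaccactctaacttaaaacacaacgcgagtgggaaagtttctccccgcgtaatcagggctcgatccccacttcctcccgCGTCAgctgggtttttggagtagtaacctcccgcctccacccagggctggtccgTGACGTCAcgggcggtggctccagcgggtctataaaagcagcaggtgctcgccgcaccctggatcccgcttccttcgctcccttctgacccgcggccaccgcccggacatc
Counting from 0 at the first transcribed base, the half-sites of Prkaca began at -120 and -6, and that of Atf1 at -90.

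Among the 3 coactivators, Crtc2 rose with anti-CD45RB in B6 mice, while Crtc1 and Crtc3 did not pass the test. Crtc2 (ENSMUSG00000027936, chromosome 3, 90254163 to 90264125, GRCm38) was the most abundant of the 10 genes, with a mean of 40.9 FPKM over the 12 libraries. Its level was 46.9, 47.5 and 46.5 FPKM in the treated B6 mice and 38.9, 37.9 and 41.0 FPKM in the untreated B6 mice. The groups did not overlap, and the lowest treated mouse lay above the highest untreated one. The means were 47.0 ± 0.516 and 39.3 ± 1.57 FPKM (SD, n = 3 each), a rise of 19.6%, and the difference on the log2(FPKM + 1) scale was 0.25 ± 0.037 (SE) with an adjusted p of 0.00829 (limma). That scale understates the change of genes near 1 FPKM, which bears here on Crem and Crtc1 more than on the others.

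In SLE123 mice, Crtc2 was at 36.4, 38.5 and 41.3 FPKM with treatment and at 40.0, 39.3 and 37.0 FPKM without it. The treated mice lay on both sides of the untreated mice, and the levels of all 6 were in or near the range of untreated B6 mice. The difference was -0.0017 with a 95% confidence interval of -0.18 to 0.18, so that a difference of the size fitted in B6 lay outside the interval. Rescaled to TPM (transcripts per the same total in each library) it was 0.19, where the median of all genes was 0.20. The difference between the strains' responses was itself tested as an interaction on all 12 mice, and for Crtc2 it was -0.26 with an interval of -0.43 to -0.077, an unadjusted p of 0.00918 and an adjusted p of 0.0982 (limma). It did not pass the threshold of 0.05, and over the 22 alternative settings its adjusted p ran from 0.0601 to 0.808. Among treated mice, Crtc2 was lower in SLE123 than in B6 by 0.27 ± 0.051 (SE) on the log2 scale, with an adjusted p of 0.004. That comparison shares the treated B6 mice with the one above and is not a second observation of their high level.

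Crtc1 (ENSMUSG00000003575, chromosome 8, 70382355 to 70439579) was the least abundant of the 10, with a mean of 3.74 FPKM. It stood at 3.84, 4.71 and 4.53 FPKM in untreated and at 4.64, 3.82 and 4.32 FPKM in treated B6 mice. SLE123 mice were at 3.59, 2.86 and 2.98 FPKM without and at 3.12, 3.05 and 3.44 FPKM with treatment. All 6 SLE123 libraries lay below all 6 B6 libraries, and neither strain's treated and untreated mice were set apart. Crtc1 was lower in SLE123 by 0.37 ± 0.12 (SE) on the log2 scale in untreated mice (adjusted p = 0.037) and by 0.32 ± 0.083 in treated mice (adjusted p = 0.0164). The first call was lost with no filter on low values (adjusted p = 0.0725) and without any one of B6 untreated replicates 3, 4 and 5 or SLE123 untreated replicates 2 and 3 (adjusted p = 0.0505, 0.135, 0.115, 0.0756 and 0.0927), and the second without any one of B6 anti-CD45RB replicates 1 and 5 or SLE123 anti-CD45RB replicate 2 (0.0514, 0.0527 and 0.06).

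Crtc3 (ENSMUSG00000030527, chromosome 7, 80586627 to 80688877), with a mean of 22.8 FPKM, passed the test in no comparison. Its 12 values ran from 16.5 to 25.9 FPKM, and the lowest was SLE123 untreated replicate 3, with the next lowest at 21.6 FPKM in SLE123 untreated replicate 2. The treatment difference was -0.041 in B6 (interval -0.17 to 0.088) and 0.17 in SLE123 (interval -0.14 to 0.47). The wider interval in SLE123 went with a residual SD of 0.182 there and 0.0711 in B6, on the log2 scale.

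**Figure D1:**
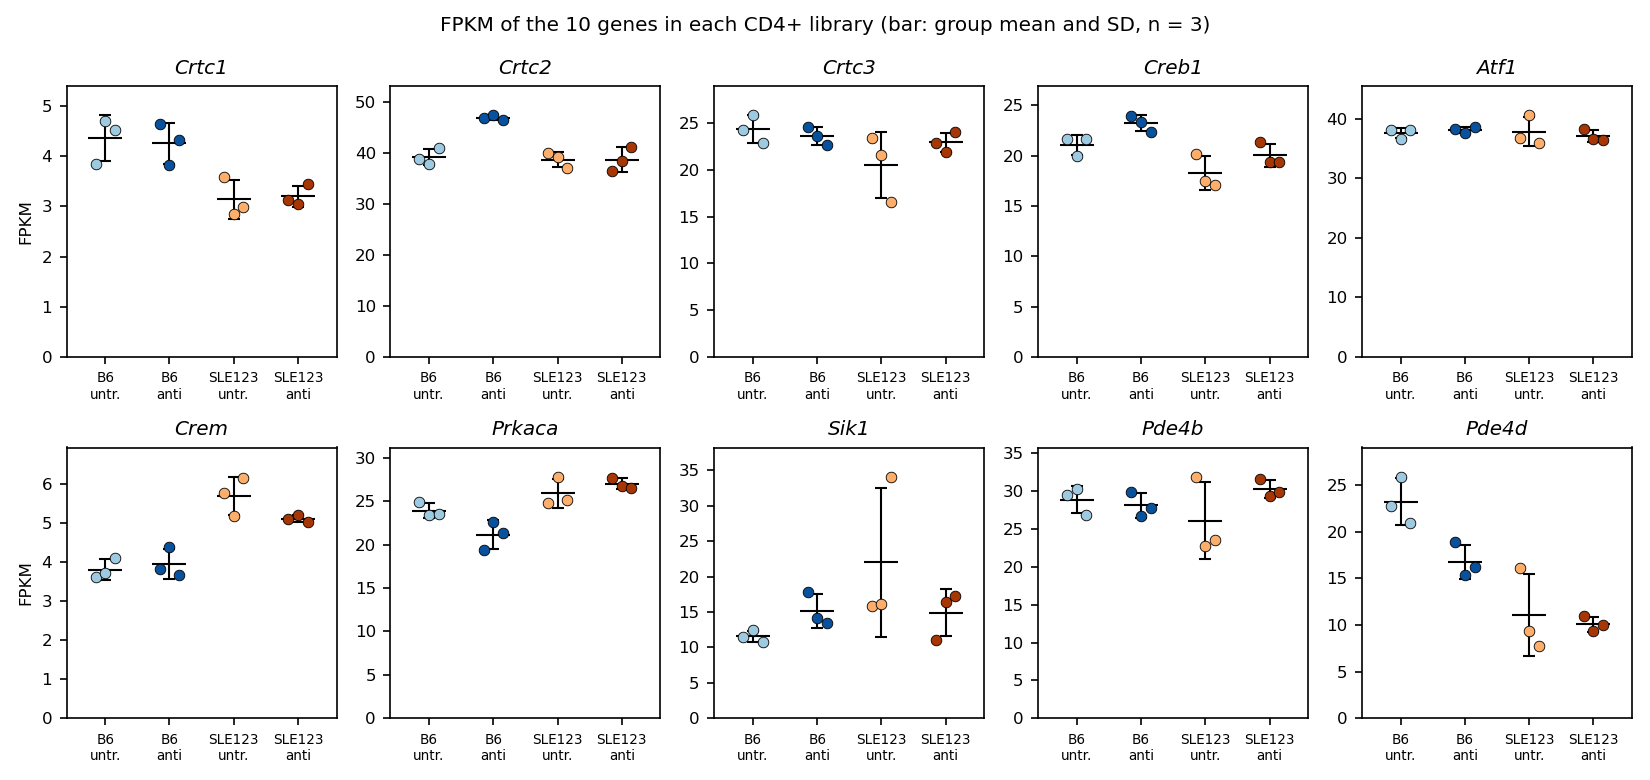
FPKM (vertical axes, from 0) of each of the 10 genes in the 12 CD4+ libraries, by group, with the group mean and SD (n = 3). The treated B6 mice stand above all other mice for Crtc2, at 46.5 to 47.5 FPKM, Pde4d is highest in untreated B6 mice, at 20.9 to 25.9 FPKM, and all SLE123 libraries lie above all B6 libraries for Crem.

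The transcription factors differed little with treatment, and Crem differed between the strains. Creb1 (ENSMUSG00000025958, chromosome 1, 64532645 to 64604548), the namesake factor, was at 23.95, 23.4 and 22.4 FPKM in treated and at 21.6, 19.9 and 21.6 FPKM in untreated B6 mice. The groups did not overlap, yet the difference of 0.14 ± 0.048 (SE) had an adjusted p of 0.103 and was not called. In SLE123 it was at 21.4, 19.4 and 19.4 FPKM with and at 20.2, 17.5 and 17.1 FPKM without treatment, and the groups overlapped. The difference there was 0.13 (interval -0.083 to 0.34), and the interaction was -0.0061 (interval -0.23 to 0.22). Creb1 was lower in treated SLE123 than in treated B6 mice by 0.21 ± 0.053 (SE) with an adjusted p of 0.0165, which was lost without B6 anti-CD45RB replicate 1 or SLE123 anti-CD45RB replicate 2 or 3 (adjusted p = 0.0541, 0.0618 and 0.0579). In untreated mice the strain difference was -0.2 with an adjusted p of 0.107, and without SLE123 untreated replicate 1 it was -0.27 with an adjusted p of 0.0234.

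Atf1 (ENSMUSG00000023027, chromosome 15, 100227819 to 100261244), a close relative of Creb1 that binds the same element, varied little. Its 12 values ran from 36.1 to 40.7 FPKM, and both of these were untreated SLE123 mice. The treatment difference was 0.018 in B6 (interval -0.059 to 0.096) and -0.025 in SLE123 (interval -0.2 to 0.15). The strain difference in untreated mice was 0.0044 (interval -0.17 to 0.18) on FPKM and -0.37 when the values were rescaled to TPM, where the median of all genes was itself at -0.35.

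Crem (ENSMUSG00000063889, chromosome 18, 3266048 to 3337748) encodes both activators and the repressor ICER, which is known to be induced by cAMP and to hold back Il2 transcription, and these forms were not told apart in values per gene. It was at 3.62, 3.72 and 4.11 FPKM in untreated and at 3.82, 4.40 and 3.67 FPKM in treated B6 mice. SLE123 mice were at 5.78, 5.18 and 6.16 FPKM without and at 5.11, 5.21 and 5.04 FPKM with treatment. The lowest SLE123 library lay above the highest B6 library, and treatment did not set the mice of either strain apart. Crem was 49.6% higher in untreated SLE123 than in untreated B6 mice (0.48 ± 0.10 (SE) on the log2 scale, adjusted p = 0.00839) and 1.29-fold higher in the treated mice (0.30 ± 0.074, adjusted p = 0.0125). Both calls held with any single mouse left out, and the call in treated mice was lost with replicate numbers as blocks (adjusted p = 0.174). Rescaled to TPM, the differences were 0.18 and 0.18 and not called (adjusted p = 0.337 and 0.169), which left Crem at 0.53 and 0.30 above the median of all genes on that scale. With 152 to 427 fragments per library, Crem rested on the lowest coverage of the 10, and 472 bases (8.01%) of its exons are shared with Gm6225 on the opposite strand, which had a mean of 0.419 FPKM. The source does not say whether the libraries were stranded.

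The kinases gave no call with treatment. Prkaca (ENSMUSG00000005469, chromosome 8, 83972993 to 83996443) encodes a catalytic subunit of PKA, which phosphorylates CREB. It was at 19.3, 22.6 and 21.4 FPKM in treated and at 24.9, 23.4 and 23.5 FPKM in untreated B6 mice. The treated mice all lay below the untreated ones, and the difference of -0.17 ± 0.062 (SE) had an adjusted p of 0.105. In SLE123 it was at 27.7, 26.8 and 26.6 FPKM with and at 24.8, 27.8 and 25.1 FPKM without treatment, an overlapping pair of groups that differed by 0.059 (interval -0.12 to 0.23). Prkaca was 1.28-fold higher in treated SLE123 than in treated B6 mice (0.34 ± 0.061 (SE), adjusted p = 0.00336). In untreated mice the difference was 0.11 (interval -0.071 to 0.29), or -0.26 on TPM, where the median of all genes was -0.35. The call among treated mice was lost on TPM, where the difference was 0.18 (adjusted p = 0.101) and the median of all genes was -0.13.

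Sik1 (ENSMUSG00000024042, chromosome 17, 31844250 to 31855804) encodes a salt-inducible kinase that is itself a CREB target gene and that keeps CRTCs in the cytoplasm. It was at 17.8, 14.1 and 13.4 FPKM in treated and at 11.4, 12.4 and 10.8 FPKM in untreated B6 mice. The groups did not overlap, and the 1.31-fold difference (0.35 ± 0.11 (SE)) had an adjusted p of 0.0705 and, with limma's voom on the recovered fragments, of 0.0185. In SLE123 it was at 11.1, 16.4 and 17.3 FPKM with and at 15.9, 16.1 and 34.1 FPKM without treatment. SLE123 untreated replicate 3, at 34.1 FPKM, had more than any other library, and it was also the library with the highest immunoglobulin share and B cell marker sum. The part of these in its level was not tested. The treatment difference in SLE123 was -0.47 with an interval of -1.19 to 0.26, or -0.12 without that mouse, and the strain difference in untreated mice was 0.79 with an interval of 0.15 to 1.42 and an adjusted p of 0.0504. Without that mouse the strain difference was 0.44 (adjusted p = 0.0138), and without SLE123 untreated replicate 1 or 2 it was 0.97 or 0.96 (adjusted p = 0.0321 and 0.0415).

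Pde4d was lower with treatment in B6 mice and lower in SLE123 than in B6, while Pde4b passed no test. By the residual SD on the log2 scale, Pde4d (0.148 in B6 and 0.362 in SLE123) varied between mice of a group more than any other of the 10 genes except Sik1 (0.160 and 0.487). Pde4d (ENSMUSG00000021699, chromosome 13, 108449948 to 109953461) was at 18.9, 15.3 and 16.2 FPKM in treated and at 22.8, 25.9 and 20.9 FPKM in untreated B6 mice. The groups did not overlap, and the mean was 1.38-fold lower with treatment, at 16.8 ± 1.84 against 23.2 ± 2.53 FPKM (SD, n = 3 each). Pde4d fell by 0.44 ± 0.098 (SE) on the log2 scale with an adjusted p of 0.0286 (limma). The call was lost without any one of B6 anti-CD45RB replicates 3 and 5 and B6 untreated replicates 3 and 4, at adjusted p-values of 0.0783, 0.0865, 0.0785 and 0.087, and the difference then was -0.39, -0.42, -0.45 and -0.36. It was also lost with no filter and with all 12 mice in one fit (adjusted p = 0.105 and 0.223).

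In SLE123, Pde4d was at 10.9, 9.32 and 9.95 FPKM with and at 16.1, 9.34 and 7.79 FPKM without treatment. SLE123 untreated replicate 1 stood above the other 5 and within the range of treated B6 mice, while those 5 lay below every B6 library. The treatment difference was -0.068 with an interval of -0.62 to 0.48, which is too wide to set it apart from that in B6, and the interaction was 0.38 (interval -0.23 to 0.99, adjusted p = 0.421). Without SLE123 untreated replicate 1 the treatment difference in SLE123 was 0.21 (adjusted p = 0.296) and the interaction was 0.66 with an adjusted p of 0.0158. The strain difference was the largest of any of the 10 genes: Pde4d was 2.09-fold lower in untreated SLE123 than in untreated B6 mice (-1.06 ± 0.23 (SE), adjusted p = 0.00987) and 1.67-fold lower in the treated mice (-0.68 ± 0.089, adjusted p = 0.000887). Both calls held in all 16 and 17 alternatives run, with adjusted p-values of at most 0.0462 and 0.0163.

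Pde4b (ENSMUSG00000028525, chromosome 4, 102087543 to 102607259), a phosphodiesterase of the same family, passed the test in no comparison. It was at 29.9, 26.7 and 27.8 FPKM in treated and at 29.5, 30.3 and 26.9 FPKM in untreated B6 mice, and in SLE123 at 31.7, 29.4 and 29.96 FPKM with and at 31.96, 22.8 and 23.5 FPKM without it. Treated and untreated mice overlapped in both strains. As for Pde4d, SLE123 untreated replicate 1 stood above the other untreated SLE123 mice, and without it the interaction was 0.41 with an adjusted p of 0.0114 in place of 0.26 with an adjusted p of 0.306. Over all genes, leaving out that mouse raised the interaction calls from 478 to 2917 of 13115. The strain difference in untreated mice was -0.16 (interval -0.47 to 0.16), and without that mouse it was -0.30 with an adjusted p of 0.0199.

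**Figure D2:**
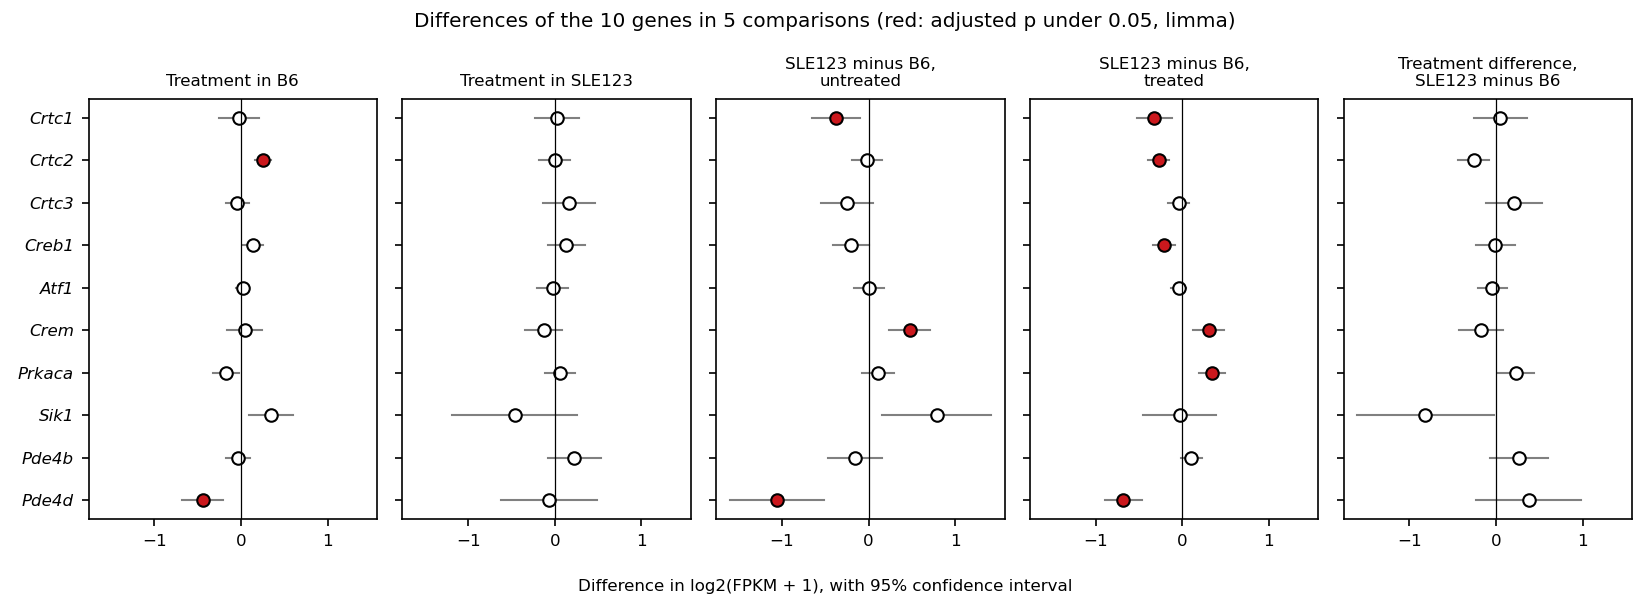
Differences in log2(FPKM + 1) (horizontal axes) with 95% confidence intervals for the 10 genes in 5 comparisons, with adjusted p under 0.05 in red. Treatment gave 2 calls in B6 (Crtc2 and Pde4d) and 0 in SLE123, the strains differed in 3 genes without and 6 with treatment, and 0 interactions were called. On TPM the untreated strain differences of Atf1 and Prkaca lie at -0.37 and -0.26 in place of 0.0044 and 0.11, where the median of all genes was -0.35.

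Counted together, 2 of the 10 genes passed the test for treatment in B6, where 14.9% of all 13115 genes tested were called, so that the share is near that of all genes. In SLE123, 0 of the 10 passed, beside 0.0381% of all genes called (limma), and voom also called 0. There, 0 of the 10 had an unadjusted p under 0.05, beside 1369 of the 13115 genes (limma). In the strain comparisons, 3 of 10 passed in untreated mice, beside 42.9% of all genes, and 6 of 10 in treated mice, beside 52.1%. The interaction was called for 0 of the 10 genes and for 3.64% of all genes. Its unadjusted p was under 0.05 for 3 of the 10 (Crtc2, Prkaca and Sik1), beside 3298 of the 13115 genes (limma). The median difference over the 10 genes was -0.0043 for treatment in B6 and 0.011 in SLE123, beside -0.0024 and 0.038 over all genes. Leaving out SLE123 anti-CD45RB replicate 1, which carried the liver transcripts, gave 6 calls in treated mice, on the same genes, and 0 for treatment in SLE123. The B6 mice stand in both the treatment and the strain comparisons, and the values above are given side by side for that reason.

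Other cell types moved with treatment in B6, and these values stand beside the 2 calls there. The summed level of 6 B cell markers was 6.13 to 7.22 FPKM in untreated and 24.5 to 33.3 FPKM in treated B6 mice, with 5 of 6 markers called higher. The 6 myeloid markers summed to 9.56 to 16.5 and 41.4 to 117 FPKM (3 of 5 tested called higher), and the 9 T cell markers to 3129 to 3250 and 2844 to 2905 FPKM (4 of 9 called lower). Neutrophil markers summed to 0.431 to 1.41 FPKM without and 12.3 to 16.2 FPKM with treatment (4 of 4 tested called higher), and platelet markers to 2.47 to 4.42 and 12.9 to 20.6 FPKM (3 of 3). Basophil and mast cell markers summed to 2.41 to 3.04 and 12.4 to 28.9 FPKM (4 of 5), and erythroid markers to 0.706 to 1.91 and 3.18 to 10.04 FPKM (2 of 3). Of the NK cell markers, at 31.0 to 32.3 and 45.1 to 54.9 FPKM, 2 of 4 were called higher and 1 lower. The plasma cell sum was 34.0 to 53.5 and 64.0 to 161 FPKM (1 of 5 called higher), and the CD8 T cell sum was 11.1 to 13.04 and 12.7 to 19.4 FPKM, with 0 of 1 tested called (limma). In SLE123 the B cell sum was 66.2 to 237 FPKM in untreated and 39.6 to 62.7 FPKM in treated mice. In the same order, platelet sums there were 6.06 to 11.2 and 5.38 to 6.22 FPKM, and myeloid sums 33.0 to 75.5 and 19.2 to 24.8 FPKM. Neutrophil sums were 14.9 to 28.2 and 7.48 to 30.5 FPKM, and NK cell sums 33.3 to 39.8 and 48.5 to 57.8 FPKM. Basophil and mast cell sums were 96.3 to 108 and 28.9 to 36.4 FPKM, and erythroid sums 27.8 to 43.1 and 2.31 to 14.2 FPKM. Plasma cell sums were 1813 to 4724 and 950 to 1740.5 FPKM, and CD8 T cell sums 4.23 to 5.76 and 5.74 to 7.69 FPKM. Crtc2 in SLE123 was at 36.4 to 41.3 FPKM, beside 37.9 to 41.0 FPKM in untreated B6 mice. Whether these cells take part in the Crtc2 and Pde4d differences in B6 was not tested.

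Between the strains, markers of T cell subsets differed in both directions. Of naive T cells, Ccr7, Il7r, Lef1 and Tcf7 were each lower in SLE123, as Pde4d and Crtc1 were, with log2 differences of -1.48, -0.87, -1.22 and -0.80 in untreated mice (adjusted p = 0.00469, 0.0105, 0.011 and 0.0115) and of -0.85, -1.04, -1.03 and -0.32 in treated mice (adjusted p = 0.000614, 0.000886, 0.000935 and 0.00155). The 5 follicular helper markers (Bcl6, Cxcr5, Pdcd1, Icos and Il21) summed to 44.8 to 62.2 FPKM in B6 and 252 to 341 FPKM in SLE123, all 5 higher in SLE123 in untreated and in treated mice, and 5 regulatory T cell markers to 42.2 to 59.8 and 153 to 190 FPKM, with 4 of 5 called higher. The part of cell composition in the strain differences of Pde4d, Crem and Crtc1 was not tested.

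**Figure D3:**
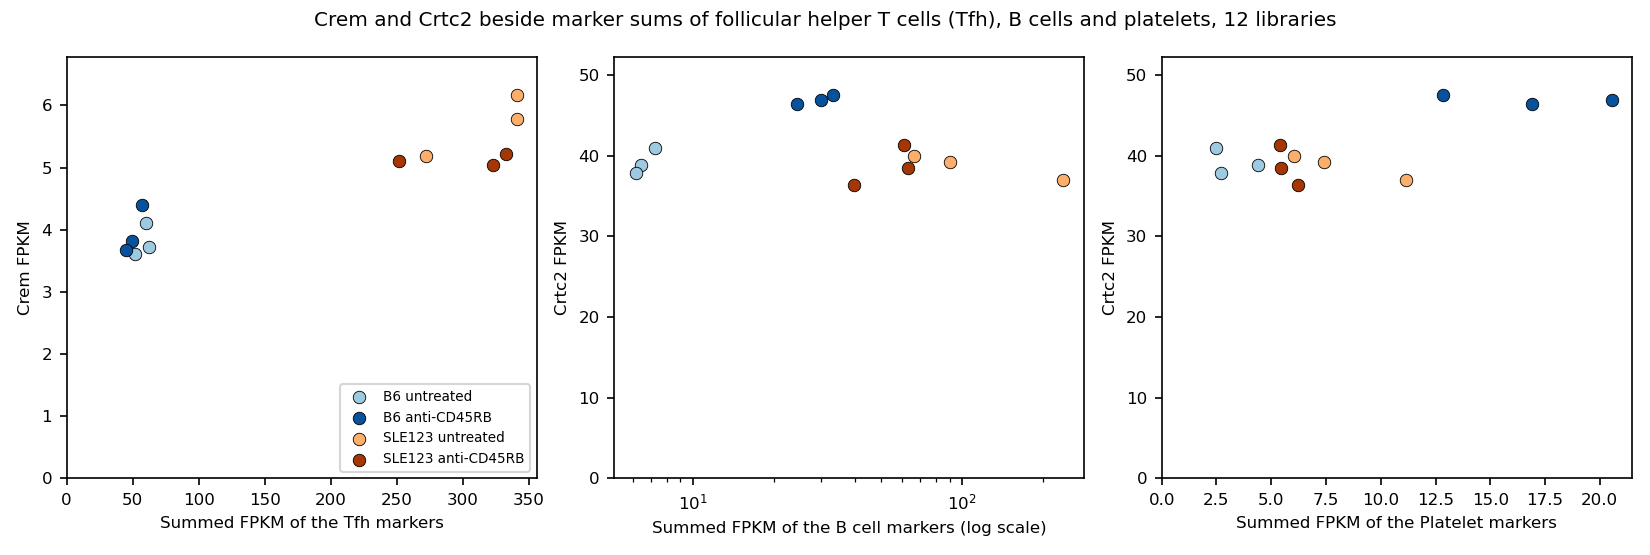
Each point is 1 of the 12 libraries, colored by group, with the FPKM of a member on the vertical axis (from 0) and the summed FPKM of a marker list on the horizontal axis (follicular helper T cell for Crem, and B cell and platelet for Crtc2, the B cell sum on a log scale). Treated B6 mice have the highest Crtc2. Their B cell markers sum to 24.5 to 33.3 FPKM, beside 39.6 to 237 FPKM in SLE123 mice. Their platelet markers sum to 12.9 to 20.6 FPKM, beside 5.38 to 11.2 FPKM in SLE123 mice. The other marker lists are not drawn, and the part of any cell type in Crtc2 was not tested.

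The rest of the pathway was described from 9 lists of 104 genes, of which 77 were tested. Treatment in B6 gave 13 calls (6 higher and 7 lower), or 16.9% of the 77 beside 14.9% of all genes, and in SLE123 it gave 0. The interaction was called for 0 of the 77, for 2 when centred on the median log-ratio, for 1 with voom or a pseudocount of 0.1, and for 22 without SLE123 untreated replicate 1. Leaving out that mouse also raised the interaction calls over all 13115 genes, from 478 to 2917. The 13 treatment calls in B6 depended on which mice were kept. Without B6 anti-CD45RB replicate 5 only 2 remained, without B6 untreated replicate 4 only 3, and without B6 untreated replicate 3 only 5. Without B6 untreated replicate 5 it was 7, and without B6 anti-CD45RB replicate 3 it was 9. All 13 kept their sign with any single mouse left out. The calls over all genes fell too, from 1948 to 844 without B6 anti-CD45RB replicate 5 and to 675 without B6 untreated replicate 4.

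Among the known CREB target genes, 4 of 14 tested were called in B6 (28.6%, beside 14.9% of all genes), 3 of them lower. Over all genes, 802 of the 1948 calls were lower. Junb, a part of the AP-1 factor, was at 372, 278 and 288 FPKM in treated and 400, 434 and 449 FPKM in untreated B6 mice (-0.46 ± 0.11 (SE), adjusted p = 0.0354). Egr1, an immediate early factor, was at 19.96, 16.2 and 17.6 against 24.1, 23.99 and 24.04 FPKM (-0.41 ± 0.072, adjusted p = 0.0149), and Nr4a3, an orphan nuclear receptor induced by T cell receptor signals, had means of 3.20 and 4.88 FPKM (-0.49 ± 0.097, adjusted p = 0.0217). The groups did not overlap for any of these. Gem, a small GTPase, was called higher, at 3.45, 3.99 and 3.94 against 1.51, 2.07 and 2.32 FPKM (0.70 ± 0.12, adjusted p = 0.0136). The median over the 14 tested targets was -0.012, beside -0.0024 over all genes.

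Upstream of CREB, 2 of the 5 further PKA genes tested were called for treatment in B6, where 14.9% of all genes were called. The regulatory subunit Prkar2b was higher (4.04 against 2.55 FPKM, 0.51 ± 0.095 (SE), adjusted p = 0.0177). The catalytic subunit Prkacb was lower (61.7 against 72.6 FPKM, -0.23 ± 0.046, adjusted p = 0.0218). Among 9 A-kinase anchors, Akap8l and Akap8 were lower (-0.24 and -0.15, adjusted p = 0.00575 and 0.0321). Of 6 further phosphodiesterases, Pde4a was called higher, at 0.996 against 0.414 FPKM and thus far below Pde4b and Pde4d. Its untreated B6 mean lay below the filter of 0.5 FPKM, which Pde4a passed through the other groups. Of 9 receptors and cAMP effectors, the prostacyclin receptor Ptgir and the adenosine receptor Adora2a were higher (0.52 and 0.33, adjusted p = 0.0185 and 0.0235) and the cAMP-activated exchange factor Rapgef4 (Epac2) was lower (-0.41, adjusted p = 0.0428). Prkab2, a subunit of the kinase AMPK, was higher (0.46, adjusted p = 0.019), 1 of 8 tested. None of the 9 other CREB and ATF factors and coactivators, 4 adenylyl cyclases or 13 calcineurin and calmodulin kinase genes tested was called. Of them, 1, 0 and 4 had an unadjusted p under 0.05, beside 4238 of all 13115 genes (limma).

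**Figure D4:**
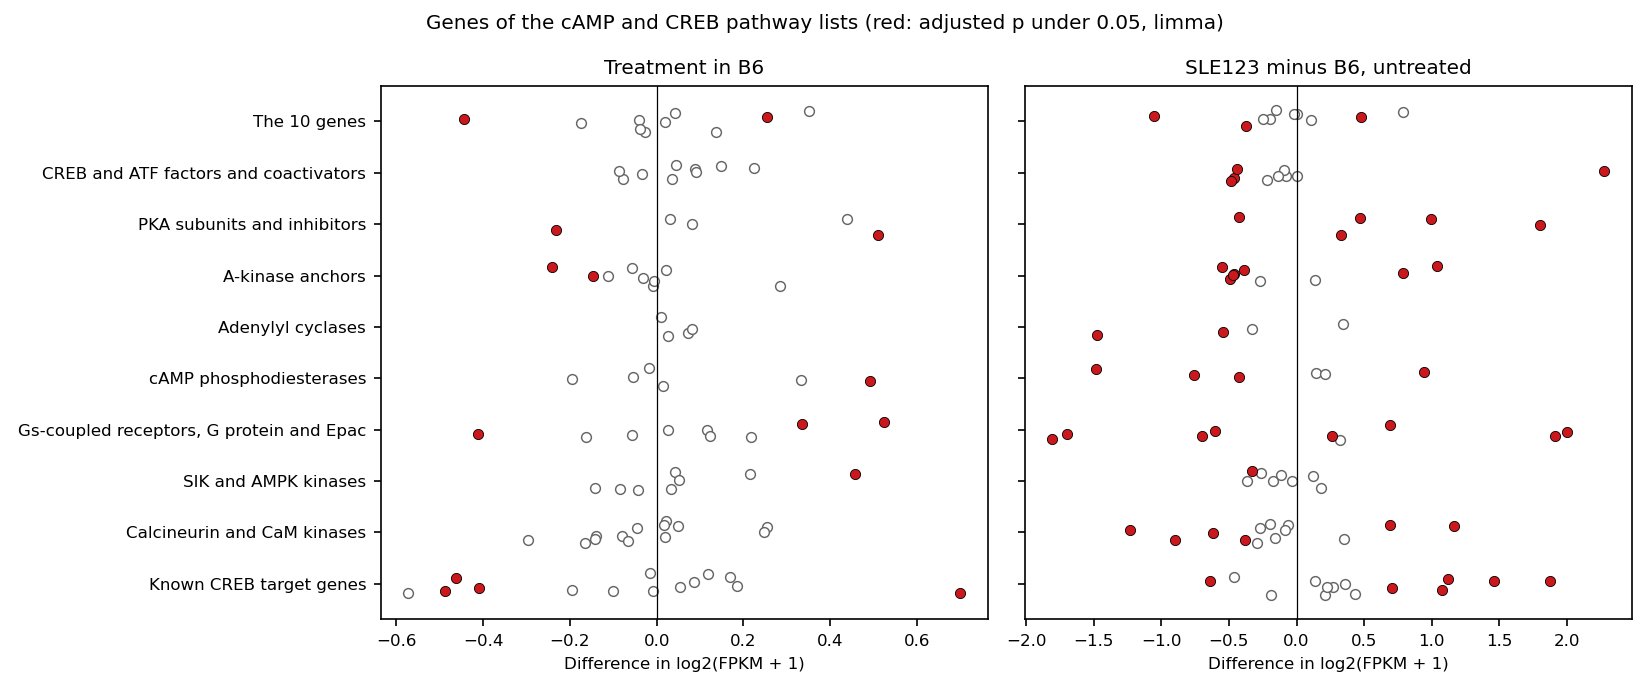
Differences in log2(FPKM + 1) (horizontal axes) of the 10 genes and of the tested genes of 9 pathway lists, for treatment in B6 and for untreated SLE123 minus untreated B6 mice, each point 1 gene, with adjusted p under 0.05 in red. Of the 77 list genes 13 are red on the left and 43 on the right, and the horizontal scales differ. On TPM, Prkar1a and Ptger4 on the right lie at -0.055 and -0.10, below 0 but above the median of all genes at -0.35.

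Between untreated strains, 43 of the 77 list genes were called (55.8%, beside 42.9% of all genes), 19 higher and 24 lower in SLE123, and between treated strains 57 (74.0%, beside 52.1%). The prostaglandin E2 receptor Ptger2, which raises cAMP in T cells, had a mean of 13.1 FPKM in untreated SLE123 and 2.75 FPKM in untreated B6 mice (1.91 ± 0.11 (SE), adjusted p = 3.01e-05), while the receptor Vipr1 was at 17.1 and 53.6 FPKM (-1.70 ± 0.31, adjusted p = 0.00467). Pde3b, a further cAMP phosphodiesterase, was at 12.6 and 36.9 FPKM (-1.48 ± 0.10, adjusted p = 6.4e-05), and so lower in SLE123 like Pde4d. Adcy6, an adenylyl cyclase, was at 5.37 and 16.7 FPKM (-1.48 ± 0.091, adjusted p = 3.6e-05).

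All 5 PKA genes tested were called in untreated mice, beside 42.9% of all genes. The inhibitor Pkig (6.60-fold, adjusted p = 0.00109) and the regulatory subunits Prkar2b (1.00, adjusted p = 0.00878) and Prkar2a (0.47, adjusted p = 0.00924) were higher in SLE123. Prkar1a was higher as well (0.33, adjusted p = 0.0248), and at -0.055 on TPM, where the median of all genes was -0.35. Prkacb was lower (-0.43, adjusted p = 0.025). Among the calcineurin and calmodulin kinase genes, the calcineurin inhibitor Rcan1 was higher (1.17 ± 0.099, adjusted p = 0.000155) and Camk4, a kinase that phosphorylates CREB, was lower (-1.23 ± 0.15, adjusted p = 0.000686), 2 of 6 calls among 13 tested. Among CREB and ATF relatives, Creb3l2 was higher (2.28 ± 0.24, adjusted p = 0.000394) and the coactivators Crebbp and Ep300 lower (-0.48 and -0.44, adjusted p = 0.00771 and 0.0342).

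Of the 14 known CREB targets tested, 5 were called higher and 1 lower in untreated SLE123 mice, a share equal to the 42.9% of all genes. Gem was at 9.99 and 1.97 FPKM (1.87 ± 0.18 (SE), adjusted p = 0.000269), Egr1 at 39.9 and 24.04 FPKM (0.70, adjusted p = 0.000734), Areg at 2.30 and 0.179 FPKM (1.46, adjusted p = 0.00108), and Rgs2, the one that was lower, at 12.7 and 20.3 FPKM (-0.64, adjusted p = 0.000435). The mean of Areg in untreated B6 mice lay below the filter of 0.5 FPKM. Areg was thus tested only because of its level in other groups, and its call and its place in the count rest on that. With treatment 10 of 14 were called (71.4%, beside 52.1% of all genes), 7 of them higher in SLE123, Areg among them. Immunoglobulin, B cell and T cell subset transcripts differed between the strains as given above, and their part in these list genes was not tested.

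By the likeness of their levels over the 12 libraries (Pearson's r of log2(FPKM + 1), given as a description among 11203 protein-coding genes), the genes closest to Crtc2 were Hist1h4c (r = 0.94), Inf2 (r = 0.92) and Kifc3 (r = 0.92), each highest in treated B6 mice. Those closest to Crem were Slc12a2 (r = 0.98), Pcyt1b (r = 0.98) and Dmwd (r = 0.97), and those closest to Pde4b were Sh2b3 (r = 0.95), Ly75 (r = 0.95) and Fem1c (r = 0.95). The 12 points share 4 groups, so that a gene with the same group means as a member comes out close to it.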

How the data were processed

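CD4+ T cells of 12 mice were sequenced, 3 mice per group by the sample titles. The authors deposited FPKM per Ensembl gene and library. CASAVA 1.8, STAR and the mm10 build are named in the submitters' processing notes, low-quality and adaptor reads had been taken out, and the annotation and counting program are not given in the sources used here. Symbols and coordinates came from GENCODE M21 (GRCm38), which matched 34490 of 35275 identifiers. Because FPKM are relative to all fragments of a library, an abundant gene class in some libraries lowers all other values there. Fragments per gene were recovered from the spacing of the values, which were whole multiples of 1 fragment, within 0.001, for 100% of the 23230 genes above 0, and libraries held 13562933 to 23641603 fragments. No molecular identifiers are described, so that depth speaks for counting error only.

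Genes below a mean of 0.5 FPKM over the 12 mice were left out, and log2(FPKM + 1) of the other 13115 was tested with limma 3.58.1 in R 4.3.3 (lmFit, eBayes with trend), on the 6 mice of each comparison or, for the interaction, on all 12, with Benjamini-Hochberg adjustment over all genes and a threshold of 0.05. Fits were tested on simulated data. Tables and plots used Python 3.11.15. Nothing says that each number marks a litter or batch, so that whether the mice were paired is not known. The main fits did not pair mice by replicate number. P-values weigh a group difference against the spread between these mice, with the variance of each gene moderated over all genes tested. The 10 members, the pathway and marker lists and the rules were chosen with earlier results of these data known. Of the 104 listed pathway genes, 103 were in the table. Named were the 10 members, up to 4 called genes per list and comparison with the smallest adjusted p, and the 3 protein-coding genes most like Crtc2, Crem and Pde4b. For the strain comparisons the text gives part of these. A marker gene and the sum of its list are not reported here. Alternatives were other pseudocounts, filters, scalings, thresholds and fits, voom on the recovered fragments, a replicate block and each mouse left out.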

Additional observations from a re-analysis of the deposited data

How the results depend on the processing

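Of the 2 members called for treatment in B6, 1 was called with no filter, 1 with all 12 mice in one fit, and 1 to 2 when single mice were left out. The SLE123 count stayed at 0 in all 17 alternatives run. Between untreated strains the count was 7 on TPM, 5 with all 12 mice in one fit, and 2 to 6 when single mice were left out, the 6 without SLE123 untreated replicate 1; between treated strains it was 4 to 6 with single mice left out. For the interaction it was 1 at a threshold of 0.1 and 0 to 2 with single mice left out. The strain difference of Atf1 in untreated mice reversed to -0.37 on TPM (adjusted p = 0.0386), where the median over all genes was -0.35 in place of -0.025; the medians on TPM were 0.20 for treatment in SLE123, -0.13 between treated strains and 0.22 for the interaction. With fragments outside immunoglobulin genes as the total, an alternative chosen after seeing the data, Crtc1 was not called between untreated strains (-0.28, adjusted p = 0.0868). Prkaca (0.23, adjusted p = 0.0482) and Sik1 (0.90, adjusted p = 0.0472) were called there and, between treated strains, Pde4b (0.17, adjusted p = 0.0263). Of the calls made in untreated strains, 53.2% were higher in SLE123, 26.4% on TPM and 67.5% with that total. For treated strains the shares were 56.8% and, on TPM, 36.3%, and for the interaction 34.7% and, centred on the median log-ratio, 20.5%, or 23.0% without immunoglobulin fragments.

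Replicate numbers are shared in part, and same-numbered mice did not deviate together throughout (r = -0.14 and -0.0936 in B6, 0.137, -0.161 and 0.266 in SLE123, 0.0647 and 0.143 between treated strains). With the replicate block 0 members were called for treatment in B6 (all genes 0 as well, 2466 at an unadjusted p under 0.05), 1 between treated strains and 0 in SLE123 and the interaction. The 1 was Pde4d, so that the calls of Crtc1, Crtc2, Creb1, Crem and Prkaca between treated strains were lost. The untreated groups share 1 number, so no replicate block could be fitted there. Over all genes the B6 count of 1948 became 1134 with no filter, 815 with all 12 mice in one fit, 3202 at a threshold of 0.1 and 675 to 1393 with single mice left out; that of 5 in SLE123 became 11 on TPM, 3 with voom, 53 with all 12 mice in one fit, 17 at 0.1 and 1 to 7 with single mice left out. The 5621 between untreated strains became 3672 to 6469 with single mice left out, the 6836 between treated strains 3414 with the block, and the 478 interactions 34 with the block, 1260 at 0.1 and 205 to 2917 with single mice left out, the highest without SLE123 untreated replicate 1. The causes of these changes were not tested. Depth limits Crem most, at 152 to 427 fragments a library.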
